A study of Mus musculus with 6 samples.

Results

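The 10 genes described here encode the main enzymes that remove hydrogen peroxide through protein thiols or through haem: the peroxiredoxins Prdx1 to Prdx6, thioredoxin (Txn1), its reductase (Txnrd1), sulfiredoxin (Srxn1) and catalase (Cat). They were taken by gene symbol from tables of 55291 genes, and all 10 were found. Each was also among the 12440 genes with enough reads to be tested, with expected counts between 608 and 35778 in every library. The study sequenced RNA from RAW264.7, an established mouse line of macrophage type whose cells become osteoclasts, the cells that resorb bone, when given the cytokine RANKL. The shUSP8 group (n = 3) carried a short hairpin RNA that lowers Usp8, a deubiquitinating enzyme of endosomes, and the shCtrl group (n = 3) carried a control hairpin and is labelled WT. All 6 cultures had been exposed to RANKL at 50 ng/mL for 4 days, so both groups were osteoclast cultures. Whether a group's libraries came from separate cultures, and whether each line was a single clone, is not in the labels. The p-values therefore rest on a spread among libraries that may be purely technical.

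Peroxiredoxins reduce hydrogen peroxide with a cysteine that is oxidised in each cycle. In most of them thioredoxin restores this cysteine, and thioredoxin reductase in turn recharges thioredoxin with electrons from NADPH. Sulfiredoxin rescues peroxiredoxins whose cysteine has been over-oxidised, while catalase splits hydrogen peroxide in peroxisomes without any thiol. Osteoclast precursors make hydrogen peroxide during RANKL signalling, and several of these genes are known targets of NRF2, the transcription factor of the antioxidant response.

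Total expected counts, which are estimates of sequenced fragments per gene, were 19973522 to 20142107 in the shUSP8 libraries and 20121644 to 20213939 in the shCtrl libraries. Usp8 itself had 656, 720 and 718 expected counts in shUSP8, against 2785, 2561 and 2645 in shCtrl. Usp8 was thus 0.250-fold as high in shUSP8 (adjusted p = 1.47e-10 by the edgeR quasi-likelihood test). Of 9 osteoclast markers, all present in every library, edgeR called 5 lower and 0 higher (3 lower and 1 higher on log2(TPM + 1)), and their summed level, in counts scaled to library size (CPM), was 11141 to 11498 in shUSP8 and 13419 to 13835 in shCtrl. Of 6 macrophage markers edgeR called 4 higher and 2 lower (4 higher and 1 lower on log2(TPM + 1)), and they summed to 5762 to 6333 CPM in shUSP8 and 4261 to 4444 CPM in shCtrl. Cd14 (1.71), Lyz2 (1.66), Adgre1 (0.93) and Itgam (0.64) rose on the log2 scale. Cd68 (-0.36) and Csf1r (-0.19), named after their values were seen, fell. Over all genes tested, edgeR called 17.8% higher and 14.9% lower, against 19.1% and 4.02% on log2(TPM + 1). A pair of libraries stood apart. The estimated fragment length was 369.5 nt in shUSP8_2, against 302.6 ± 6.23 nt (SD) over the other 5 libraries. Fragments were not measured. The estimate comes from a line fitted to expected count over TPM against annotated length, over genes with a single transcript. The 4 adult haemoglobin genes held 586 expected counts in shUSP8_1 and between 0 and 4 in each other library. The 7 neutrophil markers summed to 10.1 to 11.5 CPM in shUSP8 and 4.50 to 5.27 CPM in shCtrl, with Elane and Ly6g at 0 throughout. Only 3 of them were tested, and edgeR called all 3 higher, at low levels, against 17.8% of all genes tested. S100a8 had 18, 11 and 14 expected counts in shUSP8 and 8, 7 and 5 in shCtrl. With a minimum count of 10, it passed the filter on low counts through the shUSP8 libraries alone. Csf3r, with 15, 9 and 14 in shCtrl, also needed shUSP8 libraries to pass. The filter thus partly set the direction of these calls. Cebpe rose by 1.04 on the log2 scale (SE 0.13, edgeR adjusted p = 5.36e-05) and Csf3r by 1.75 (SE 0.26). S100a8 rose by 1.03 (SE 0.36, edgeR adjusted p = 0.0468), a call that DESeq2 lost (adjusted p = 0.236). The 5 lymphocyte markers summed to at most 0.0488 CPM in shUSP8 and 0.0505 CPM in shCtrl. The 5 stromal markers summed to 6.93 to 7.81 CPM in shUSP8 and 5.87 to 16.8 CPM in shCtrl. In such bulk samples, fewer cells of a type and less RNA per cell cannot be told apart. The part of the marker lists in the results was not tested, except where a value without a library is given.

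In the shUSP8 cells, Prdx1, Cat, Srxn1, Txnrd1 and Prdx6 rose, Prdx2 fell slightly, and Prdx3, Prdx4, Prdx5 and Txn1 did not pass the test. That made 5 members higher and 1 lower (edgeR, adjusted p under 0.05). Of all genes tested, 32.8% were called, 17.8% as higher and 14.9% as lower. The rises of Prdx1, Cat, Srxn1 and Txnrd1 were at least 2-fold, a size that 4.48% of all genes tested reached as a called rise. The median log2 fold change was 0.38 over the 10 members and -0.005 over all genes tested. On CPM values the groups did not overlap for the 5 members that rose, nor for Prdx2; every shUSP8 library lay above every shCtrl library in 24.6% of all genes tested and below in 23.1%. On transcript abundances corrected for effective length and scaled to one sum per library (TPM), 7 members lay wholly above, Prdx4 and Prdx5 being the other two, and none below, against 33.8% and 9.12% of all genes tested. The calls of the 5 rises held under each of the 16 other settings tried, including each library left out in turn. Scaling changed the balance of all calls: 2218 genes were higher and 1859 lower with TMM factors, 3111 and 1172 with library totals, and 2379 and 500 on log2(TPM + 1). On that last scale the median gene was shifted by 0.11, and limma called 7 members higher and 0 lower, against 19.1% and 4.02% of all genes.

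**Figure D1:**
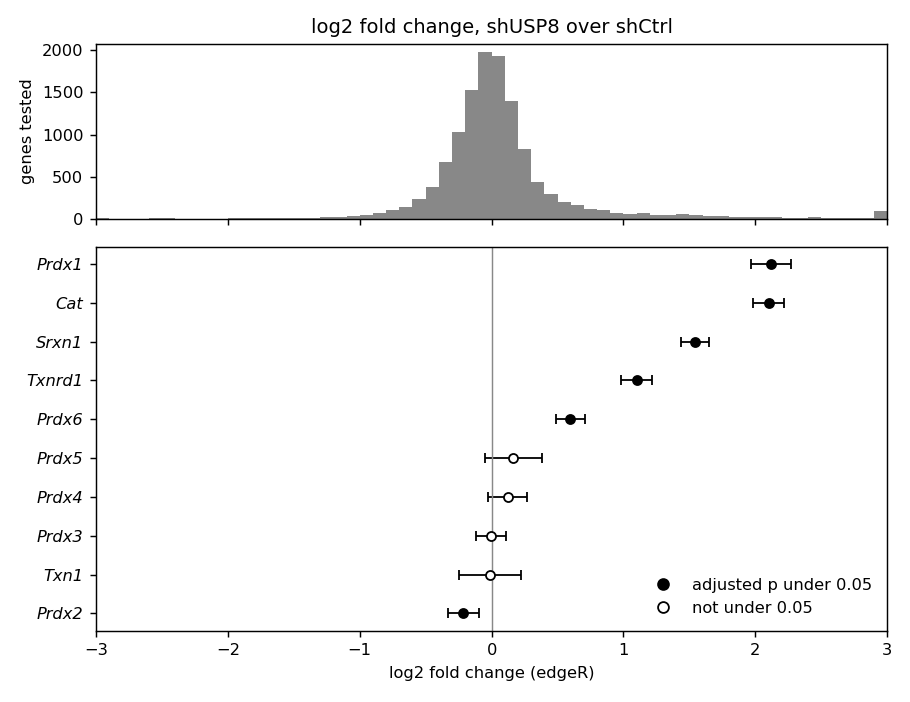
The upper panel counts all 12440 genes tested by their log2 fold change (shUSP8 over shCtrl), with values beyond -3 or 3 stacked in the outermost bars. The lower panel gives each member's log2 fold change with its approximate 95% interval from the edgeR fit, filled where the adjusted p was under 0.05. Prdx1 (2.12) and Cat (2.10) lie at the far right, and Prdx3 (-0.005) and Txn1 (-0.01) at the centre of all genes.

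The cytosolic peroxiredoxins moved apart from each other. Prdx1, the most abundant peroxiredoxin of the cytosol and nucleus, occupies bases 116685544 to 116700822 of chromosome 4 (GRCm38, plus strand). It had 35778, 30374 and 32589 expected counts in the shUSP8 libraries, against 7402, 7037 and 7263 in the shCtrl libraries. The lowest shUSP8 library, shUSP8_2, was still far above every shCtrl library. Relative abundance was 1910 ± 211 TPM in shUSP8 and 396.0 ± 20.1 TPM in shCtrl (SD, n = 3 each). This was a 4.34-fold rise (log2 fold change 2.12, SE 0.07; adjusted p = 3.63e-10 by edgeR) and its approximate 95% interval was 3.92 to 4.82. Some Prdx1 counts were not whole numbers, which means that reads shared with other loci had been divided. The annotated pseudogene Prdx1-ps held 0 counts in every library. Related loci under other names were not examined, so the loci that shared these reads are not known.

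Prdx2, the close relative of Prdx1 that is also rich in red cells, occupies bases 84969587 to 84974834 of chromosome 8, plus strand. Its expected counts were 5091, 4696 and 4610 in shUSP8, against 5272, 5412 and 5260 in shCtrl. Every shUSP8 library was lower, by a small margin in shUSP8_1, the library with the haemoglobin reads. Whether red-cell RNA added to the Prdx2 level there was not tested. Prdx2 fell by 0.21 on the log2 scale (SE 0.05; adjusted p = 0.00836 by edgeR), and the value was -0.26 without shUSP8_1 (adjusted p = 6.95e-04). The call was lost without shUSP8_3 (-0.19, adjusted p = 0.0508), with library totals (-0.14, 0.0578) and on log2(TPM + 1) (-0.081, 0.313), where the groups overlapped at 246.0 ± 9.54 TPM in shUSP8 and 260.2 ± 7.15 TPM in shCtrl. The ends of Prdx2 overlap Junb by 351 bases and Rnaseh2a by 181 bases on the opposite strand. Junb, an AP-1 subunit, rose by 0.26 (SE 0.05; adjusted p = 0.00261 by edgeR), and the library strand is not given in the sources used here, so reads in the overlap cannot be told apart.

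Prdx6 differs from the others in using a single cysteine and glutathione instead of thioredoxin, and it also has phospholipase activity. It occupies bases 161240112 to 161251219 of chromosome 1, minus strand. Its expected counts were 2382, 2255 and 2247 in shUSP8 and 1411, 1484 and 1449 in shCtrl, with a clear gap between the groups. Levels were 135.2 ± 4.05 TPM in shUSP8 and 77.9 ± 2.65 TPM in shCtrl (SD, n = 3 each). Prdx6 rose 1.51-fold (log2 fold change 0.60, SE 0.05; adjusted p = 2.50e-06 by edgeR).

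**Figure D2:**
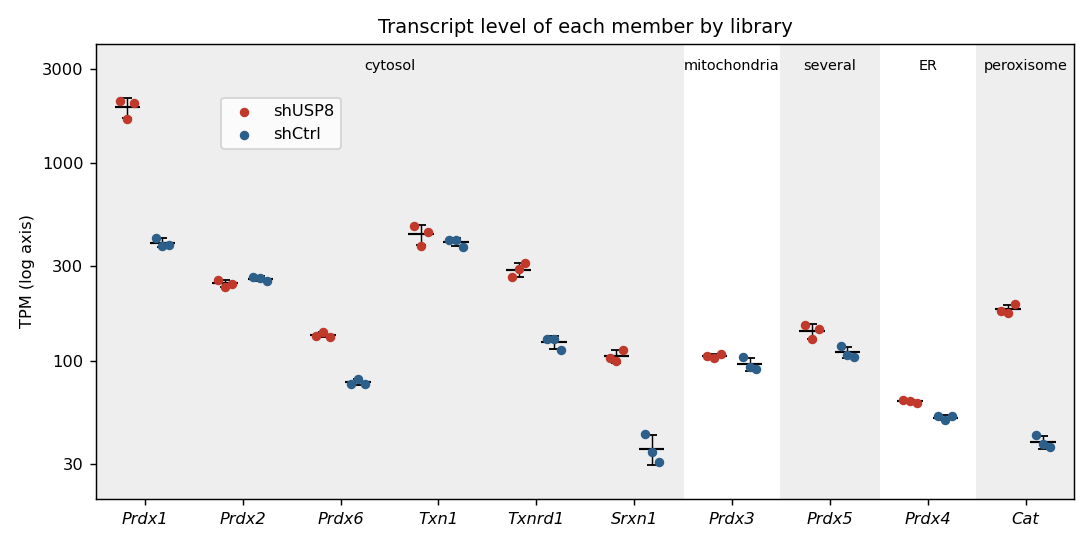
Each point is the TPM of a member in a library (log axis), with shUSP8 on the left and shCtrl on the right of each gene, and the bar and whiskers give the mean and SD of 3 libraries. Genes are shaded by the compartment of their protein; Prdx5 is found in several. The shUSP8 points stand clear above the shCtrl points for Prdx1, Prdx6, Txnrd1, Srxn1 and Cat, and by a smaller gap for Prdx4 and Prdx5, which did not pass the edgeR test. The 2 groups overlap for Prdx2, Prdx3 and Txn1.

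The enzymes that recharge and repair peroxiredoxins rose, while thioredoxin itself did not pass the test. Txn1, the small dithiol protein that reduces oxidised peroxiredoxins, occupies bases 57943373 to 57956411 of chromosome 4, minus strand. Its expected counts were 6219, 4616 and 5464 in shUSP8 and 5204, 5410 and 5074 in shCtrl. The shUSP8 libraries lay on both sides of the shCtrl libraries, with the lowest value in shUSP8_2, the library with the longest estimated fragments. Its log2 fold change of -0.01 had an approximate 95% interval of -0.25 to 0.22 (adjusted p = 0.951 by edgeR), and the sign turned with effective lengths as offsets (0.0072, adjusted p = 0.966).

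Txnrd1, the cytosolic thioredoxin reductase, is a selenoprotein that uses NADPH. It spans bases 82833951 to 82897712 of chromosome 10, plus strand. Its expected counts were 11411, 12155 and 12380 in shUSP8, against 5402, 5535 and 5070 in shCtrl, so the lowest shUSP8 library held more than any shCtrl library. Txnrd1 rose 2.14-fold (log2 fold change 1.10, SE 0.05; adjusted p = 1.40e-08 by edgeR). Eid3, which overlaps Txnrd1 by 1305 bases on the same strand, held at most 35 expected counts.

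Srxn1 encodes sulfiredoxin, which spends ATP to reduce over-oxidised peroxiredoxins such as Prdx1 to Prdx4. It spans bases 152105516 to 152111376 of chromosome 2, plus strand. The libraries held 4216, 4137 and 4228 expected counts in shUSP8, and 1435, 1359 and 1337 in shCtrl. Within each group the values lay close together, and the groups were far apart. Srxn1 rose 2.91-fold (log2 fold change 1.54, SE 0.05; adjusted p = 3.39e-10 by edgeR).

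The mitochondrial, secretory and multi-compartment peroxiredoxins did not pass the test. Prdx3, the peroxiredoxin of the mitochondrial matrix, spans bases 60864051 to 60874556 of chromosome 19, minus strand. It had 2129, 2032 and 2057 expected counts in shUSP8 and 2107, 1930 and 1922 in shCtrl, and the groups overlapped. Prdx3 had a log2 fold change of -0.005 (adjusted p = 0.954 by edgeR). Its approximate 95% interval ran from a 0.920-fold to a 1.08-fold level in shUSP8, and the sign turned under several settings (0.0035 with effective-length offsets and 0.13 on log2(TPM + 1)).

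Prdx4, the peroxiredoxin of the endoplasmic reticulum and of secretion, spans bases 155323918 to 155340754 of the X chromosome, minus strand. Its expected counts were 756, 695 and 683 in shUSP8 and 614, 608 and 651 in shCtrl. These did not overlap as counts, but they did after TMM scaling, at 33.4 to 36.9 CPM in shUSP8 and 30.7 to 33.6 CPM in shCtrl. For Prdx4 the log2 fold change was 0.12, with an approximate 95% interval of -0.03 to 0.27 (adjusted p = 0.198 by edgeR). It passed with library totals (0.20, adjusted p = 0.0375) and on log2(TPM + 1) (0.27, 0.0126).

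Prdx5, which uses an atypical internal disulphide and is found in mitochondria, peroxisomes and cytosol, spans bases 6906697 to 6910106 of chromosome 19, minus strand. It had 2417, 1822 and 2171 expected counts in shUSP8, against 1842, 1820 and 1807 in shCtrl. The value of shUSP8_2 lay among the shCtrl libraries and the other two shUSP8 libraries lay above them. The Prdx5 log2 fold change was 0.16 (SE 0.09; adjusted p = 0.228 by edgeR), and it was 0.27 without shUSP8_2 (adjusted p = 0.00320). On log2(TPM + 1), which divides by the effective length of each library, it was 0.36 (adjusted p = 0.0182). Prdx5 overlaps Trmt112 by 409 bases on the opposite strand, and some of its counts were not whole, so its count is uncertain.

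Catalase, the haem enzyme of peroxisomes, rose as much as Prdx1. Cat spans bases 103453849 to 103485160 of chromosome 2, minus strand. It had 7055, 6939 and 7252 expected counts in shUSP8, against 1666, 1538 and 1520 in shCtrl. Both groups were tight, and no library came near the other group. Levels were 181.9 ± 10.4 TPM in shUSP8 and 38.7 ± 2.87 TPM in shCtrl (SD, n = 3 each). This 4.29-fold rise had an approximate 95% interval of 3.96 to 4.66 (log2 fold change 2.10, SE 0.05; adjusted p = 6.26e-11 by edgeR). Without shUSP8_1, the library with the haemoglobin reads, the log2 fold change of Cat was 2.10 (adjusted p = 1.77e-13 by edgeR). Red cells are rich in catalase, and whether red-cell RNA added to the Cat level was not tested.

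The rise of Cat stood beside mixed changes in a peroxisome list of 51 other genes. Of the 47 tested, 9 rose and 6 fell (edgeR), which is near the 17.8% higher and 14.9% lower over all genes tested. The median log2 fold change was -0.01, against -0.005 over all genes tested. Abcd4, an ABC transporter of the lysosome grouped with its peroxisomal relatives, rose by 0.95 (SE 0.07, adjusted p = 3.20e-07). Abcd2, a transporter of the peroxisome membrane, rose by 2.16 (SE 0.33) at levels of only 0.307 TPM in shUSP8 and 0.06 TPM in shCtrl. Pex16, a protein that helps to build the peroxisome membrane, fell by 0.37 (SE 0.07; adjusted p = 0.00106 by edgeR). With DESeq2 the list had 5 genes higher and 5 lower, and on log2(TPM + 1) 9 higher and 2 lower. With a library left out, 5 (without shCtrl_2) to 9 were higher and 3 (without shCtrl_3 or shUSP8_3) to 7 lower; 6 were higher without shCtrl_1, shCtrl_3, shUSP8_2 or shUSP8_3, and 4 were lower without shUSP8_2.

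Promoter sequences of the 4 members that rose most are printed here, because they rose together and their start regions can be compared letter by letter. RefSeq (GRCm38.p6) gave windows of 250 bases before to 50 bases after a transcription start for 9 members; Prdx6 was not matched. The antioxidant response element, which NRF2 binds with small MAF proteins, was searched by its core TGACNNNGC, and the AP-1 element by TGACTCA, on both strands. The letters of the pair can overlap, as they do in Prdx1. Capitals mark every match, and each sequence runs 5′ to 3′ along its gene.
Prdx1, chr4:116685349-116685648, plus strand: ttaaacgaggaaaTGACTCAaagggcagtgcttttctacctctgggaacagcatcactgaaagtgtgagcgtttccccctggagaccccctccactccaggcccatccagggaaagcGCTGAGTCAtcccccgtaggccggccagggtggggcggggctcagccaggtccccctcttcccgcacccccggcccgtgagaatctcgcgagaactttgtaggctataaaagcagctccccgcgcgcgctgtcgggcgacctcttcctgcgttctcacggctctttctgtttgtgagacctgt
Srxn1, chr2:152105274-152105573, plus strand: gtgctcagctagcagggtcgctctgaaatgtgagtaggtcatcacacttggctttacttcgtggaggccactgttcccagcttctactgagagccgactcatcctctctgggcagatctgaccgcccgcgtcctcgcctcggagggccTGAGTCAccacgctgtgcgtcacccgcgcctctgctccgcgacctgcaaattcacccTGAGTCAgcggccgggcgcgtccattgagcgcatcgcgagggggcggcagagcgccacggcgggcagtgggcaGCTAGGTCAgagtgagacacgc
Txnrd1, chr10:82858956-82859255, plus strand: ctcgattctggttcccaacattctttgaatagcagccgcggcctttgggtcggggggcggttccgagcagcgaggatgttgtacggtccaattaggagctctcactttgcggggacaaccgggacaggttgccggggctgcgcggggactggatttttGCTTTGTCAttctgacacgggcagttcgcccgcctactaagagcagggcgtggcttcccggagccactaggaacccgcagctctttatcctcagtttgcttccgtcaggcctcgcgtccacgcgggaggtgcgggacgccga
Cat, chr2:103485104-103485403, minus strand: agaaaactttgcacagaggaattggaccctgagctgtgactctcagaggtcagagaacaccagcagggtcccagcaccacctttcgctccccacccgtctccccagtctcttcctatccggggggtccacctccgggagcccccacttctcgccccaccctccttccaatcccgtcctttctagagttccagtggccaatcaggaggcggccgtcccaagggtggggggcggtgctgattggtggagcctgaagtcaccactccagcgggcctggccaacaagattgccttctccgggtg
The Prdx1 window held an antioxidant response core that begins 133 bases before the start and shares its letters with an AP-1 match, plus another AP-1 match 237 bases before the start. The Srxn1 window held AP-1 matches that begin 102 and 45 bases before the start, and an antioxidant response core that begins 28 bases after it. Txnrd1 has 3 annotated windows, and the one printed held an antioxidant response core that begins 92 bases before the start. The other Txnrd1 windows held neither core. The Cat window held neither, nor did those of Prdx2, Prdx3, Prdx4, Prdx5 and Txn1. In all, 3 of the 9 matched members had the antioxidant response core in a window, against 14.0% of 27025 genes, and 2 had the AP-1 core, against 5.95%. A gene with more windows has more places for a match. The 9 members had 11 windows, and of all 32851 windows 12.4% held the antioxidant response core and 5.2% the AP-1 core. A match is a description of these letters in these windows and not a measured binding site.

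Ratios of members within each library compared chosen pairs from different compartments and roles. Prdx1 stood for the cytosol, and it had the largest rise of the members. Of the other cytosolic members, Prdx6, Srxn1 and Txnrd1 also rose, while Prdx2 (-0.21) and Txn1 (-0.01) did not. A ratio to Prdx1 thus carries the rise of Prdx1 and does not stand for the cytosol as a whole. The ratio of Prdx3 to Prdx1 TPM was 0.0554 in shUSP8 and 0.242 in shCtrl, a log2 difference of -2.13. The ratio of Prdx4 to Prdx1 fell by 1.99 and that of Prdx5 to Prdx1 by 1.90 on the log2 scale. The groups did not overlap in any of these, but a two-sided exact permutation test of 3 against 3 libraries cannot go below p = 0.1. Each gave exact p = 0.1, or 0.117 when adjusted over the 7 ratios compared.

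Catalase was set against Prdx1 and the mitochondrial Prdx3 in the same way. The ratio of Cat to Prdx1 was 0.0956 in shUSP8 and 0.0978 in shCtrl, a log2 difference of -0.03, and the groups overlapped (two-sided exact permutation p = 0.8). The log2 ratio of Cat to Prdx1 had an SD of 0.13 in shUSP8 and 0.04 in shCtrl (n = 3 each), so its difference was smaller than the spread of the libraries. Cat stood at 1.73 times the TPM of Prdx3 in shUSP8 and at 0.403 times in shCtrl (log2 difference 2.10, exact permutation p = 0.1, adjusted 0.117). The sulfiredoxin ratio was lower in shUSP8: that of Srxn1 to Prdx1 was 0.0553 in shUSP8 and 0.0900 in shCtrl (log2 difference -0.70, exact permutation p = 0.1, adjusted 0.117). The Txnrd1 to Txn1 ratio was 0.662 in shUSP8 and 0.311 in shCtrl (log2 difference 1.09, exact permutation p = 0.1, adjusted 0.117).

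**Figure D3:**
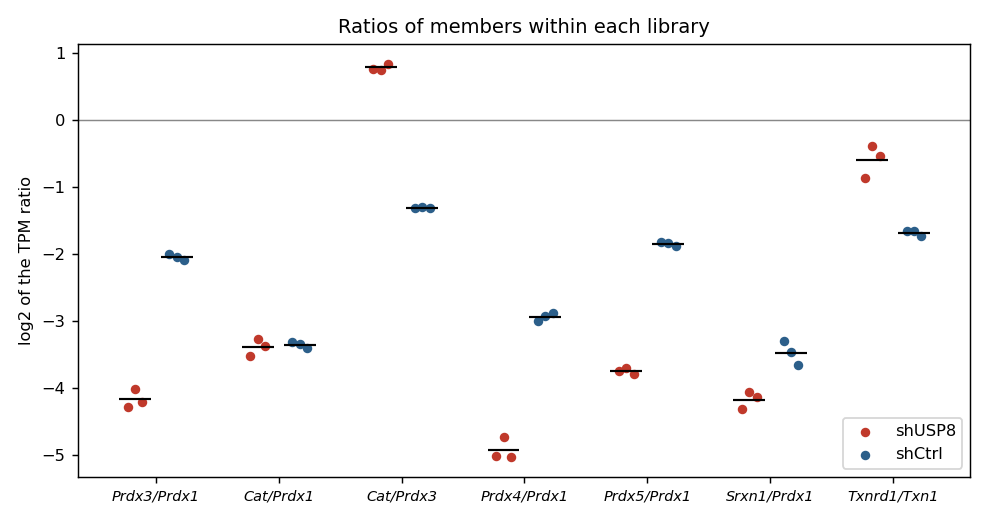
Each point is the log2 ratio of the TPM of 2 members in a library, with shUSP8 left of shCtrl for each ratio and a bar at the mean of 3 libraries. The groups are far apart for Prdx3, Prdx4 and Prdx5 over Prdx1, for Cat over Prdx3 and for Txnrd1 over Txn1. They overlap for Cat over Prdx1.

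The order of the members by level, on the TPM scale that corrects for length, changed between the groups. In shUSP8, Prdx1 was highest, followed by Txn1 at 436.5 ± 51.8 TPM, Txnrd1 at 288.1 ± 23.2, Prdx2 at 246.0 ± 9.54 and Cat at 181.9 ± 10.4 TPM (SD, n = 3). Next came Prdx5 at 141.8 ± 12.4 TPM and Prdx6, whose ranges overlapped, then Prdx3 at 105.3 ± 2.54 TPM and Srxn1 at 105.3 ± 7.42 TPM, which overlapped as well, and Prdx4 at 62.4 ± 1.18 TPM. In shCtrl, Txn1 at 397.3 ± 19.1 TPM and Prdx1 at 396.0 ± 20.1 TPM overlapped at the top, followed by Prdx2 at 260.2 ± 7.15 TPM. Txnrd1 at 123.8 ± 9.08 TPM overlapped with Prdx5 at 110.1 ± 7.32 TPM, and Prdx5 overlapped with Prdx3 at 96.1 ± 7.46 TPM. Prdx6 and Prdx4 at 51.6 ± 1.31 TPM stood below, and Cat and Srxn1, at 35.9 ± 6.11 TPM, overlapped at the bottom.

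Prdx1 made up most of the peroxiredoxin transcripts in shUSP8. The 6 peroxiredoxins summed to 2600 ± 230 TPM in shUSP8 and 991.9 ± 39.3 TPM in shCtrl (SD, n = 3 each). Prdx1 made up 74.3%, 71.3% and 74.4% of that sum in the shUSP8 libraries, against 40.4%, 39.1% and 40.2% in the shCtrl libraries. The share of Prdx2 was 9.49% ± 0.581 in shUSP8 and 26.2% ± 0.669 in shCtrl, and that of the mitochondrial Prdx3 was 4.07% ± 0.301 in shUSP8 and 9.68% ± 0.362 in shCtrl. The 5 peroxiredoxins other than Prdx1 summed to 690.7 ± 19.9 TPM in shUSP8 and 595.9 ± 20.8 TPM in shCtrl. These shares are of transcripts and say nothing of protein.

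**Figure D4:**
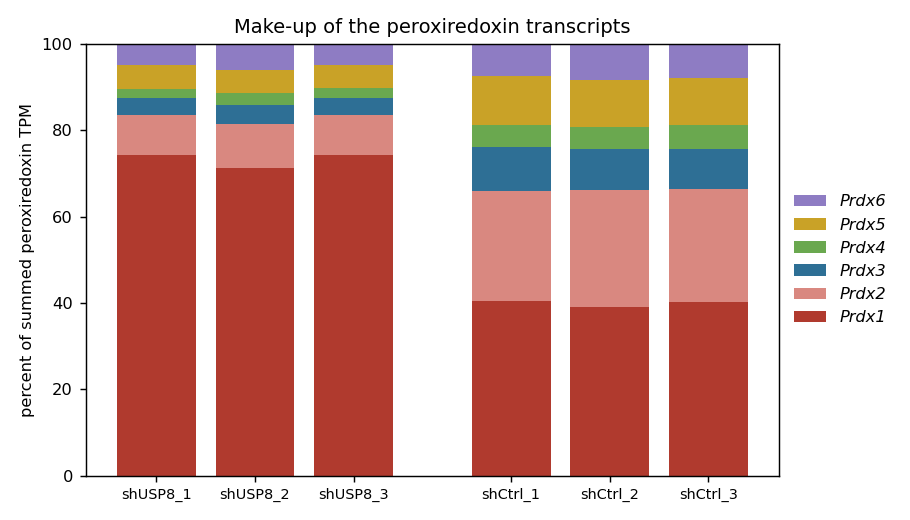
Stacked bars give each peroxiredoxin as a percent of the summed TPM of the 6 peroxiredoxins, with a bar for each library and the shUSP8 libraries on the left. Prdx1 fills 71.3% to 74.4% of the shUSP8 bars and 39.1% to 40.4% of the shCtrl bars.

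Other genes of the same chemistry differed by list. In a list of 19 NRF2-responsive genes that holds no member, edgeR called 18 higher and 0 lower. Over all genes tested, 17.8% were called higher and 14.9% lower. The list was written with earlier results of these data known. Its counts were also 18 and 0 at an unadjusted p under 0.05, with DESeq2 and with limma-voom. Its median log2 fold change was 1.11. Gclm, the modifier subunit of the enzyme that begins glutathione synthesis, had 231.8 ± 40.9 TPM in shUSP8 and 31.1 ± 1.5 TPM in shCtrl (log2 fold change 2.49, SE 0.07). G6pdx, which makes NADPH in the pentose phosphate pathway, rose by 1.55 (SE 0.05), Gstm1, a glutathione transferase, by 1.53 (SE 0.07) and Gsr, glutathione reductase, by 1.19 (SE 0.06). Ephx1, an epoxide hydrolase, was the exception at 0.11 (SE 0.11, edgeR adjusted p = 0.506). Nqo1, a quinone reductase, had 45, 41 and 53 expected counts in shUSP8 and 1, 0 and 1 in shCtrl, so it passed the filter on low counts through the shUSP8 libraries alone, as did Mgst1, a membrane glutathione transferase (127, 63 and 60 in shUSP8, 11, 1 and 10 in shCtrl). The 18 include Nqo1 and Mgst1, whose calls the filter allowed only because they were high in shUSP8. Nqo1, Mgst1 and Ephx1 were named after their values were seen.

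Among 12 regulators of these enzymes, 10 were tested, 4 rose and 3 fell, all by less than the members that rose (edgeR log2 fold changes -0.34 to 0.26). Over all genes tested, 17.8% were called higher and 14.9% lower. The number of rises called changed with the setting. It was 0 without shCtrl_2, 1 without shCtrl_1, 1 without shUSP8_3, 1 with effective-length offsets and 2 with DESeq2. It was 3 without shCtrl_3 or shUSP8_2 and 4 without shUSP8_1. Over all genes, 2218 were higher with all libraries, 1675 without shCtrl_2, 1800 without shCtrl_1, 1717 without shUSP8_3 and 2349 without shUSP8_1. The 3 falls were called in each of these fits. Keap1, which marks NRF2 for destruction, rose by 0.25 (SE 0.06, edgeR adjusted p = 0.00817), and its call was lost without shCtrl_2 (0.22, adjusted p = 0.0540) and with effective-length offsets (0.23, 0.0580). Of the small MAF genes, Maff fell by 0.34 (SE 0.07) and Mafk by 0.27 (SE 0.06). Mafg, at 62.7 TPM in shUSP8 and 50.5 TPM in shCtrl, rose by 0.15 (SE 0.05, edgeR adjusted p = 0.0425). Bach1 rose by 0.26 (SE 0.08, edgeR adjusted p = 0.0276). Mafg and Bach1 were named after their values were seen. Ppargc1b, a coactivator of mitochondrial genes, fell by 0.32 (SE 0.06). On log2(TPM + 1) the falls of Maff, Mafk and Ppargc1b were lost (-0.20, -0.15 and -0.19, limma adjusted p = 0.0769, 0.169 and 0.253). On that scale Mafg passed (0.31, limma adjusted p = 0.0200) and Bach1 did not (0.30, 0.116). Nfe2l2, the NRF2 gene, named after its values were seen, was at 0.17 (SE 0.05, edgeR adjusted p = 0.0203). It did not pass with effective-length offsets (0.16, adjusted p = 0.0645) or without shCtrl_2, where no regulator was called higher. Nor did it pass without shCtrl_1 or without shUSP8_3, where Keap1 was the only regulator called higher.

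No gene of a mitochondrial redox list passed the edgeR test. Of 9 tested, none was called in either direction, against 32.8% of all genes tested called by edgeR. None was called at an unadjusted p under 0.05, by DESeq2 or by limma-voom either. On log2(TPM + 1) and with library totals 1 was called higher, and the fit without shUSP8_1 called 1 lower. Gpx4, a lipid peroxide reductase, was at 0.06 (SE 0.05, edgeR adjusted p = 0.392) and passed on log2(TPM + 1) (0.22, adjusted p = 0.0140). Sod2, the mitochondrial superoxide dismutase, was at 0.09 (SE 0.05, edgeR adjusted p = 0.218) and passed with library totals (0.16, 0.0349). In a list of thioredoxin relatives and partners, 15 of 17 were tested, 2 rose and 1 fell (edgeR), against 17.8% higher and 14.9% lower over all genes tested. The median log2 fold change of that list was 0.01. Msrb1, a selenoprotein that repairs oxidised methionine, rose by 0.61 (SE 0.12) and Glrx, the cytosolic glutaredoxin, by 0.54 (SE 0.07). Sesn1, a stress-induced sestrin, fell by 0.21 (SE 0.07, edgeR adjusted p = 0.0332), and 10 of the other settings, such as DESeq2 (-0.21, adjusted p = 0.110), lost that call. Of the thioredoxin system of mitochondria, Txn2 was at -0.10 (SE 0.05) and Txnrd2 at 0.04 (SE 0.06), both named after their values were seen.

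**Figure D5:**
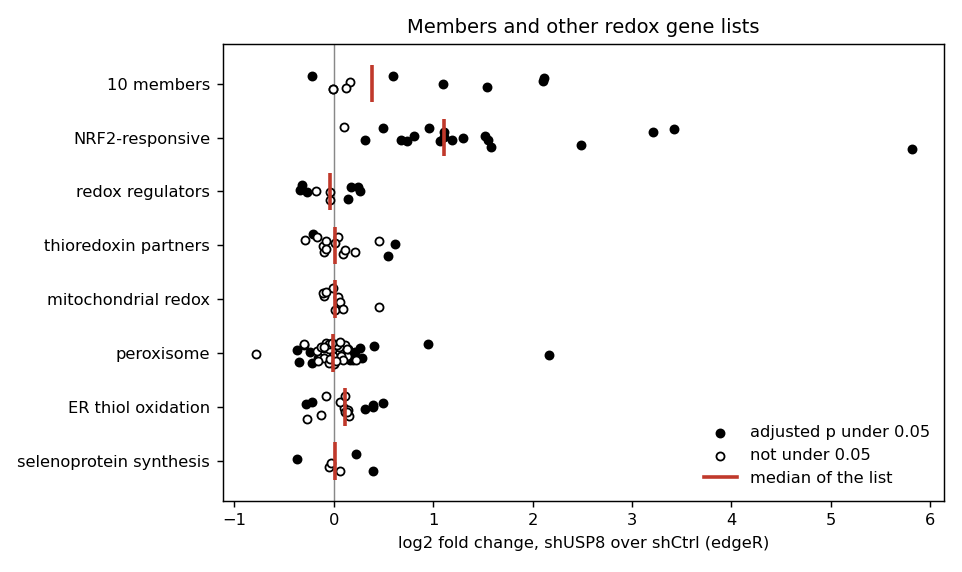
Each point is the edgeR log2 fold change (shUSP8 over shCtrl) of a tested gene, filled where the adjusted p was under 0.05, with a red bar at the median of its list; points are spread vertically for display. The NRF2-responsive list lies to the right with a median of 1.11, the 10 members spread from -0.21 to 2.12, and the medians of the other lists lie within 0.11 of 0.

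Over the 6 libraries, the expression pattern of Cat was most like that of Cd36, Lgals3bp and Prdx1, out of 5351 genes compared. Likeness was the root mean square distance between log2 CPM values, each centred on its own mean, over the 6 libraries, and it was 0.06, 0.06 and 0.07 for these genes. Cd36, a scavenger receptor for lipids, had 342.0 ± 21.7 TPM in shUSP8 and 78.0 ± 4.69 TPM in shCtrl. Lgals3bp, a secreted glycoprotein that binds galectins, had 104.6 ± 5.81 TPM in shUSP8 and 21.8 ± 1.65 TPM in shCtrl. By this distance Prdx1 was thus the member nearest to Cat. The distance includes the difference between the groups, and the log2 fold changes were 2.01 for Cd36, 2.15 for Lgals3bp and 2.12 for Prdx1, against 2.10 for Cat. Within shUSP8 the libraries of Cat and Prdx1 ranked differently. Cat was highest in shUSP8_3 (354.1 CPM) and Prdx1 in shUSP8_1 (1746 CPM). Nearest to Prdx2, the member that fell, were Capg, an actin-capping protein, Arfgap2, a coat-protein regulator of the Golgi, and Ndufc2, a complex I subunit, at a distance of 0.02 each. Their log2 fold changes were -0.19, -0.18 and -0.20.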

How the data were processed

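The authors deposited expected counts, which are RSEM-style estimates of fragments per gene and partly not whole, and TPM values, which divide each by effective length and scale every library to the same sum. RSEM, DESeq2 1.28.1 and mm10 are named in the submitters' processing notes without their roles; the aligner, annotation release and library strand are not given in the sources used here. Columns labelled KO were taken as shUSP8, the only genotype other than WT, and matched by number.

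From these, expected counts were rounded and tested with edgeR 4.0.16 (R 4.3.3; TMM, filterByExpr with minimum count 10, robust quasi-likelihood F test, Benjamini-Hochberg over 12440 genes). SE is the size of the log2 fold change over the root of the F statistic. Alternatives used DESeq2 1.42.0, limma 3.58.1 and log2(TPM + 1). The pipeline was tested on simulated data. GENCODE M21 (GRCm38) gave positions and held 99.1% of the files' transcripts; sequences are from RefSeq.

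The members and lists were chosen with earlier results of these data known. Named are Usp8, the members, up to 4 called genes per list by smallest p (else the 2 with the highest TPM), and the 3 genes nearest to the member with the smallest p in each direction. A gene that this rule selects is not reported here. Chi-square per gene between libraries of a group was 2.29 to 18.5, so none was a duplicate.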

Additional observations from a re-analysis of the deposited data

How the results depend on the processing

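Prdx1, Cat, Srxn1, Txnrd1 and Prdx6 kept their direction and their call under all 16 alternatives; with a library left out their log2 fold changes ranged from 2.05 to 2.18, 2.08 to 2.14, 1.52 to 1.57, 1.07 to 1.13 and 0.57 to 0.61. Prdx2 lost its call with library totals (-0.14), log2(TPM + 0.1) (-0.081) and log2(TPM + 1) (-0.081), which left 0 members lower, and ranged from -0.26 to -0.19 with a library left out (0 to 1 members lower). Prdx3 turned positive with effective-length offsets (0.0035), library totals (0.068), log2(TPM + 0.1) (0.13) and log2(TPM + 1) (0.13), and Txn1 likewise (0.0072, 0.062, 0.13 and 0.13); with a library left out they ranged from -0.032 to 0.034 and from -0.12 to 0.10. Prdx4 passed with library totals (0.20) and on log2(TPM + 0.1) and log2(TPM + 1) (0.27 each). Prdx5 passed on those TPM scales (0.36 each) and without the filter (0.16), and it ranged from 0.063 to 0.27 with a library left out. The members' median was 0.58 on log2(TPM + 0.1) and 0.57 on log2(TPM + 1). Over all genes, 1226 were lower with effective-length offsets, 1172 with library totals, 492 on log2(TPM + 0.1) and 500 on log2(TPM + 1), and 1239 (without shCtrl_2) to 2077 with a library left out. The Cat to Prdx1 difference ranged from -0.095 to 0.036 with a library left out. Same-numbered libraries share only a number: their deviations from group means correlated at -0.01, 0.02 and -0.06. With the replicate block 2021 genes were higher and 1690 lower, and no member's call changed. For the ratio of Prdx3 to Prdx1 the paired exact permutation p was 0.25 (difference -2.13), the smallest that 3 pairs allow. The causes of these changes were not tested. No member had fewer than 608 expected counts in a library.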

Other observations

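Genes for folding and disulphide formation in the endoplasmic reticulum, the compartment of Prdx4, gave counts that depended on the scaling. Of 16 tested in a list of 20 symbols, 4 rose and 2 fell (edgeR), against 17.8% higher and 14.9% lower over all genes tested. Their median log2 fold change was 0.11. On log2(TPM + 1) 7 were higher and 0 lower, against 19.1% and 4.02% of all genes tested, and the median of the list was 0.24. Library totals gave 6 higher and 1 lower. Without shCtrl_3 the counts were also 6 and 1, 1 was lower without shCtrl_1, shCtrl_2 or shUSP8_3, and 3 were lower without shUSP8_1. Qsox1, a sulfhydryl oxidase, rose by 0.50 (SE 0.07), Txndc5 and Pdia6, both disulphide isomerases, by 0.40 (SE 0.05) and 0.32 (SE 0.05). Erp29, a chaperone of secretory proteins, fell by 0.27 (SE 0.07, edgeR adjusted p = 0.00761), a call that log2(TPM + 1) lost (-0.11, adjusted p = 0.199).

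The machinery that makes selenoproteins such as Txnrd1 was also mixed, with 2 of 6 genes higher and 1 lower (edgeR). Over all genes tested, 17.8% were higher and 14.9% lower. The median log2 fold change of the 6 genes was 0.02. Sephs2, which makes the selenium donor, had 123.1 ± 5.43 TPM in shUSP8 and 85.7 ± 3.76 TPM in shCtrl (SD, n = 3 each; log2 fold change 0.39, SE 0.05, edgeR adjusted p = 1.58e-04). Sepsecs, the enzyme that completes selenocysteine on its transfer RNA, fell by 0.37 (SE 0.08) and lost its call on log2(TPM + 1) (-0.22, adjusted p = 0.125). Eefsec, the elongation factor for selenocysteine, was at 0.22 (SE 0.08, edgeR adjusted p = 0.0419) and lost its call in DESeq2 (adjusted p = 0.137), on log2(TPM + 1) (0.153), on offsets of effective length (0.501) and without shCtrl_2 (0.166), shCtrl_3 (0.161), shUSP8_1 (0.0520), shUSP8_2 (0.0667) or shUSP8_3 (0.112).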
